A study of Rattus norvegicus with 9 samples.

Results

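Grm8, Casq1, Trpv1, Slc24a4, Dgkk, Nacc2, Stk36 and Ly6al are 8 genes with low signal in pancreatic islets of Zucker Diabetic Fatty rats during rosiglitazone treatment. They are 8 of the 14217 genes with a probe set on the array, and they were picked because their values on treated arrays lay below those of either or both other groups. Their treated values are therefore a description, without a test. Each gene is given by its brightest probe set, and all 8 of these passed the filter on dim probe sets. The genes have 17 probe sets of their own, of which 11 passed, and a further probe set is shared between Trpv1 and Trpv4.

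RNA came from isolated islets of male Zucker Diabetic Fatty rats (fa/fa), which lack a working leptin receptor and turn obese and diabetic, and was hybridised to 9 expression arrays, 3 per group. All groups were fed Purina 5008 diet from the age of 5 weeks. Rosiglitazone activates PPAR gamma, a nuclear receptor, and is used against type 2 diabetes. Treated rats ate powdered Avandia tablets mixed into the food (3 mg/kg body weight) from week 5 to week 9 and were sampled at 9 weeks of age. Withdrawal rats received the same course, then 2 weeks without the drug, and were sampled at 11 weeks of age. Untreated controls received no drug and were sampled at 13 weeks of age. The ages differ between all 3 groups, so treatment and age cannot be told apart in any comparison below. In whole islets, fewer cells of a type and less RNA per cell cannot be told apart either. Of 5 markers of beta cells (Ins1, Ins2, Iapp, Slc2a2 and Pdx1) all were above the array median on every array, and so were all 4 markers of acinar cells, the enzyme-secreting cells around the islets. The labels call the 3 arrays of a group biological replicates without naming the animals behind them, so p-values measure the spread between these samples.

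The 8 genes act at the cell surface and in calcium, lipid and gene regulation. Grm8, Trpv1 and Ly6al encode surface proteins: a glutamate receptor, a cation channel and a protein of the Ly6 family. Casq1 and Slc24a4 encode proteins that hold or move calcium, whose entry into beta cells triggers insulin release. Dgkk, Stk36 and Nacc2 encode a lipid kinase, a protein kinase and a transcriptional repressor. What joins them here is their low signal under the drug.

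All 8 genes were lower on the 3 treated arrays than on the 3 untreated arrays with no overlap of values, as were 11.7% of the 20695 probe sets tested. Against the withdrawal arrays all 8 were again lower with no overlap, as were 14.9% of probe sets tested, and 9.77% lay below both groups. The choice of the genes fixed these counts. Their median difference, on the log2 scale, was −1.38 for treated minus untreated and −1.62 for treated minus withdrawal arrays, where the medians over all probe sets tested were 0.16 and 0.19. By size, the treated minus untreated differences lay between the 6th (Grm8) and the 72nd (Nacc2) lowest of 20695. For treated minus withdrawal the places ran from the 1st (Grm8) to the 29th (Slc24a4).

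**Figure D1:**
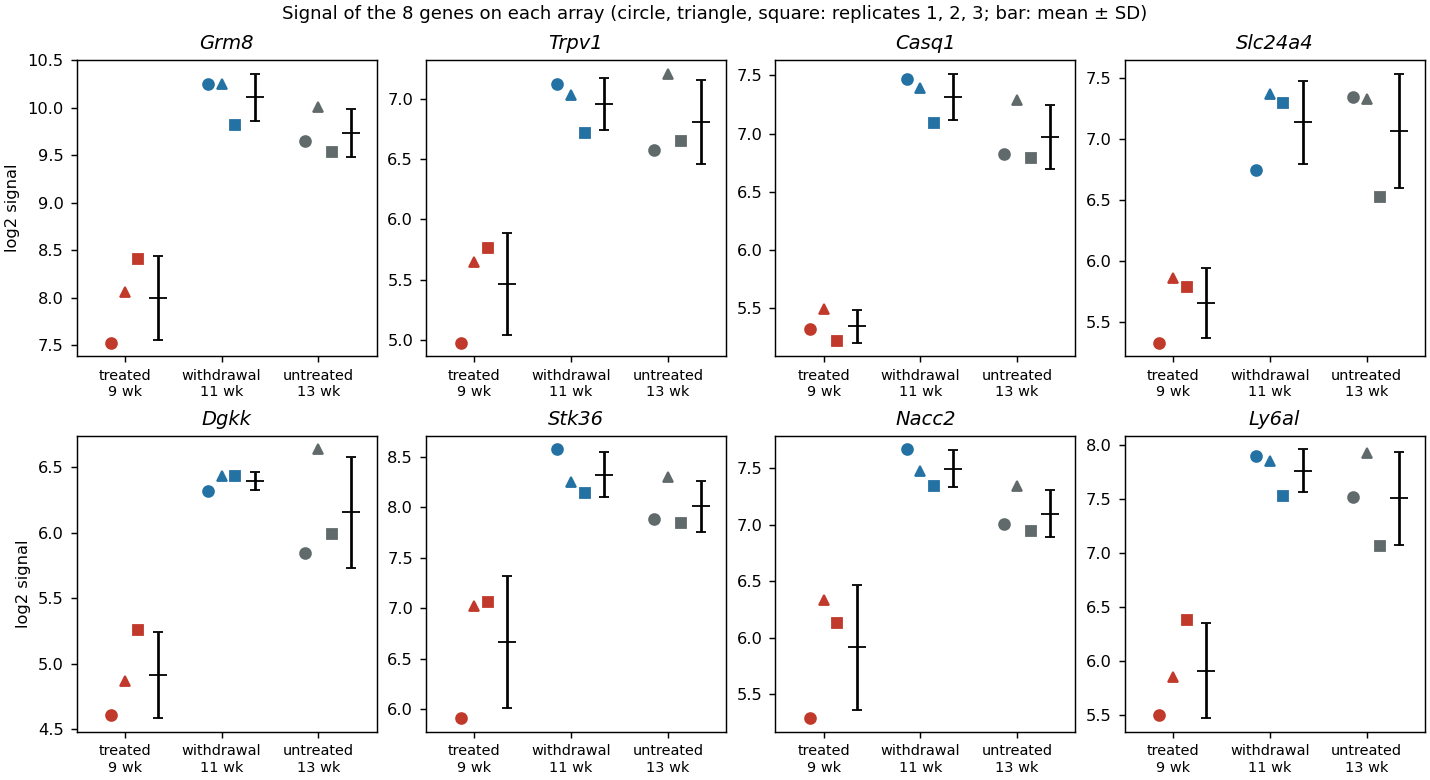
Log2 signal of each gene (y axis, scaled per gene) on the 3 treated, 3 withdrawal and 3 untreated arrays; symbols are replicates and black bars are the mean ± SD. In each panel the 3 treated arrays lie below the other 6, and the withdrawal and untreated groups lie close together.

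Grm8 encodes a metabotropic glutamate receptor of group III, coupled to inhibitory G proteins and, in rat islets, described on glucagon cells. The log2 signal of its probe set 1371242_at was 7.52, 8.06 and 8.40 on treated arrays, 10.25, 10.26 and 9.82 on withdrawal arrays and 9.65, 10.01 and 9.54 on untreated arrays. Treated arrays were the lowest, and withdrawal and untreated arrays overlapped. The difference was −1.74 ± 0.22 (SE, n = 3 per group) for treated minus untreated arrays, or 3.34-fold lower, and −2.12 for treated minus withdrawal arrays, or 4.33-fold lower. After quantile normalization, which gives every array the same distribution, these were −2.08 and −2.65.

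Withdrawal minus untreated was not itself compared for the choice, but the choice used the values of both groups. For Grm8 it was 0.37 (95% interval −0.098 to 0.85; limma, adjusted p = 0.773). The difference thus did not pass the threshold, with an interval that reaches from slightly lower to clearly higher after withdrawal.

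Trpv1 encodes the cation channel opened by heat and capsaicin, known from sensory nerve fibres, which also reach the pancreas. Its probe set 1370675_at read 4.98, 5.64 and 5.76 under treatment, 7.13, 7.03 and 6.72 after withdrawal and 6.57, 7.21 and 6.65 in untreated rats. The first treated array was the lowest of all 9, and the second untreated array was the highest. Treated signal was 2.55-fold below untreated (−1.35 ± 0.22) and 2.83-fold below withdrawal signal (−1.50). The withdrawal minus untreated difference was 0.15 (95% interval −0.34 to 0.63; limma, adjusted p = 0.927).

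Ly6al belongs to the Ly6 family of small surface proteins, held in the membrane by a lipid anchor in most members. It read 5.50, 5.85 and 6.38 under treatment, 7.90, 7.85 and 7.53 after withdrawal and 7.52, 7.93 and 7.07 in untreated rats. The treated arrays were the lowest 3, and withdrawal and untreated arrays overlapped. Its difference was −1.60 ± 0.24 against untreated arrays (3.03-fold lower) and −1.86 against withdrawal arrays (3.62-fold lower). Withdrawal minus untreated was 0.26 (95% interval −0.27 to 0.78; limma, adjusted p = 0.867).

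Casq1 encodes calsequestrin 1, the calcium-binding protein of the sarcoplasmic reticulum of fast skeletal muscle. Its values were 5.32, 5.49 and 5.21 under treatment, 7.47, 7.39 and 7.09 after withdrawal and 6.83, 7.29 and 6.79 in untreated rats. The treated arrays agreed closely with each other, with the smallest SD of the 8 genes in that group (0.14, n = 3). All 3 treated values lay below the median of their array (5.77, 5.78 and 5.74), so Casq1 was dim there. The differences were −1.63 ± 0.16 from untreated (3.09-fold lower) and −1.97 from withdrawal arrays (3.93-fold lower). Among the 8 genes Casq1 came nearest to a difference between withdrawal and untreated arrays, at 0.35 (95% interval −0.0059 to 0.70; limma, adjusted p = 0.677).

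Slc24a4 encodes a sodium-calcium exchanger that also carries potassium, known from tooth enamel and olfactory neurons. Treated arrays read 5.33, 5.87 and 5.79, withdrawal arrays 6.75, 7.37 and 7.30 and untreated arrays 7.35, 7.33 and 6.53. One withdrawal and one untreated array were low within their groups, at 6.75 and 6.53, and both were still above the treated arrays. The treated difference was −1.41 ± 0.24 from untreated (2.65-fold lower) and −1.48 from withdrawal arrays (2.79-fold lower). Withdrawal and untreated arrays had almost the same mean, with a difference of 0.071 (95% interval −0.45 to 0.60; limma, adjusted p = 0.971).

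Dgkk encodes diacylglycerol kinase kappa, which turns the second messenger diacylglycerol into phosphatidic acid. It was dim, at 4.61, 4.87 and 5.26 under treatment, 6.32, 6.43 and 6.44 after withdrawal and 5.84, 6.64 and 5.99 in untreated rats. On treated arrays it lay below the array medians, which ran from 5.74 to 5.81 over the 9 arrays. Its differences were −1.25 ± 0.21 from untreated (2.37-fold lower) and −1.48 from withdrawal arrays (2.80-fold lower). For withdrawal minus untreated it had 0.24 (95% interval −0.22 to 0.69; limma, adjusted p = 0.861).

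Stk36 encodes the relative of the Drosophila kinase Fused, which acts in Hedgehog signalling in flies and in building motile cilia in mice. It read 5.91, 7.02 and 7.06 under treatment, 8.58, 8.25 and 8.15 after withdrawal and 7.89, 8.30 and 7.85 in untreated rats. The first treated array was far below the other two, and the SD on treated arrays, 0.65, was the largest of the 8 genes. The differences were −1.35 ± 0.27 from untreated (2.54-fold lower) and −1.66 from withdrawal arrays (3.16-fold lower). Withdrawal minus untreated was 0.31 (95% interval −0.27 to 0.90; limma, adjusted p = 0.857).

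Nacc2 encodes a transcriptional repressor with a BTB domain that recruits the histone-deacetylating NuRD complex. Its brightest probe set, 1377932_at, read 5.29, 6.33 and 6.13 under treatment, 7.67, 7.47 and 7.34 after withdrawal and 7.01, 7.34 and 6.95 in untreated rats. Here the lowest withdrawal array stood just above the highest untreated one, so these groups did not overlap. The treated differences were −1.18 ± 0.23 from untreated (2.27-fold lower) and −1.58 from withdrawal arrays (2.98-fold lower). Withdrawal minus untreated was 0.40 (95% interval −0.11 to 0.90; limma, adjusted p = 0.776).

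**Figure D2:**
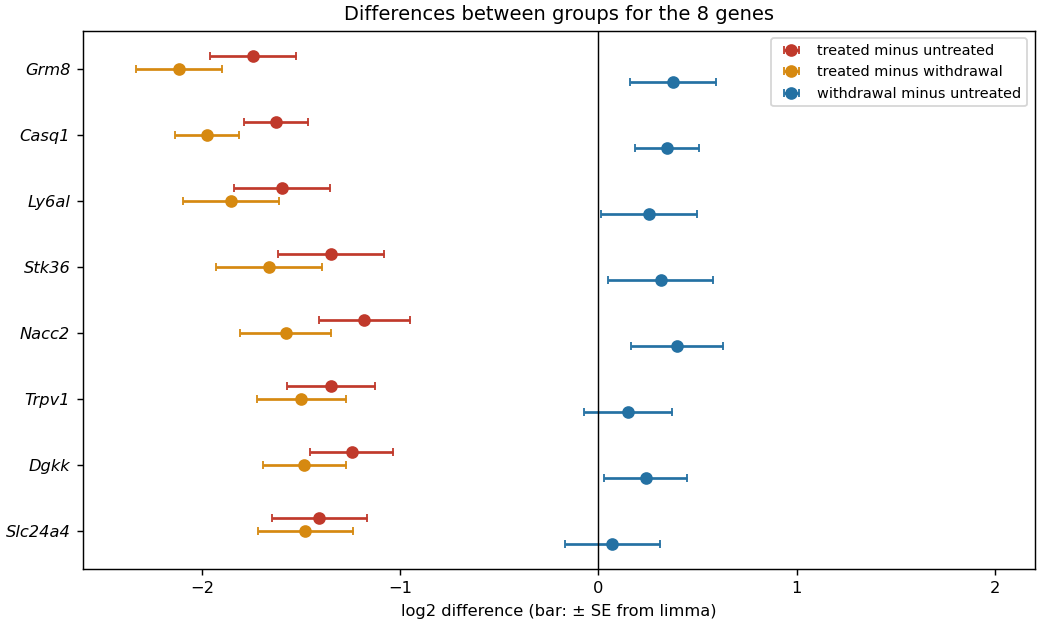
Log2 differences (x axis) of the 8 genes for the 3 comparisons, with bars of ± SE from limma. The treated differences run from −1.18 to −2.12, and the withdrawal minus untreated differences from 0.071 to 0.40.

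After 2 weeks without the drug, none of the 8 genes differed from untreated rats past the threshold. All 8 withdrawal minus untreated differences were above 0, with a median of 0.29 against −0.02 over all probe sets tested, and 1 of 8 had values above untreated arrays without overlap, against 7.65% of probe sets. Limma called 0 of the 8 after adjustment, where it called 0.159% of all probe sets, and 0 at an unadjusted p under 0.05, where it had 7.5%. With array weights, which count noisier arrays less, it called 5 of 8 higher on withdrawal arrays (Grm8, Casq1, Dgkk, Stk36 and Nacc2), where 15.8% of probe sets were called and 3.73% were called higher. The genes share these 6 arrays, so their common direction is not 8 separate observations. The choice of the genes also used the values of these arrays, so this contrast is not independent of it.

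The genes also varied together within groups, on the same array values that the choice used. The first treated array was below its group mean for 8 of 8 genes and was the lowest treated array for 7 of them. Within the untreated group, the second array was above the group mean for all 8 genes and the third was below it for all 8. The third withdrawal array was below its group mean for 6 genes. Over the 28 pairs of genes, the Pearson correlation of deviations from group means had a median of 0.65, from 0.17 to 0.98. These points share the 9 arrays, and the correlation is a description. No share over all probe sets is given beside these counts, so they may not be particular to the 8 genes.

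Properties of the arrays moved with these values. The SD of log2 signal over all probe sets was 1.84 to 2.00 under treatment, 1.65 to 1.72 after withdrawal and 1.66 to 1.77 in untreated rats, and the mean of the 8 genes was 5.56 to 6.25, 7.55 to 7.76 and 7.17 to 7.76. The first treated array had both the widest spread, 2.00, and the lowest mean, 5.56. The second untreated array had the narrowest spread of its group, 1.66, and the highest mean, 7.76. The 3′ minus 5′ difference of the beta-actin control probe sets, a sign of RNA integrity, was 0.71 to 0.89 under treatment, 0.95 to 1.06 after withdrawal and 0.97 to 1.12 in untreated rats, and that of Gapdh overlapped between groups (0.57 to 0.70, 0.56 to 0.87 and 0.65 to 0.86). The part of the actin difference in these results was not tested. With all arrays brought to 1 distribution, the median of the 8 genes was −1.46 for treated minus untreated and −1.81 for treated minus withdrawal, and the 3 treated arrays were still below all others for all 8 genes. On that scale 17.8% of all probe sets lay below the untreated arrays without overlap, and 20.7% below the withdrawal arrays. Counted by rank within each array, the median gene of the set had 45.6% to 57.8% of probe sets above it on treated arrays, against 15.5% to 20.2% on withdrawal and 18.8% to 28.4% on untreated arrays.

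**Figure D3:**
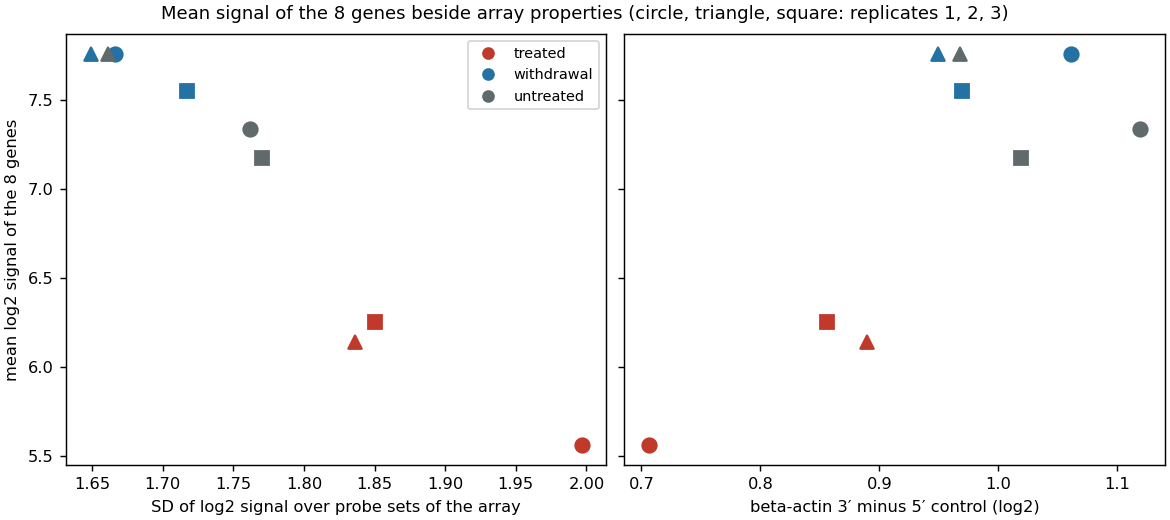
Mean log2 signal of the 8 genes on each array (y axis) against the SD of log2 signal over the array's probe sets (left) and the 3′ minus 5′ beta-actin control difference (right). The first treated array, at an SD of 2.00 and a mean of 5.56, stands apart, and the treated arrays lie lowest in both panels.

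Most other probe sets of these genes did not show the low signal. Casq1, Dgkk and Ly6al have 1 probe set each, and the other 5 genes have 9 further probe sets, 6 of them left out as dim. Of these 9, 1 was lower on treated than on untreated arrays with no overlap, as were 11.7% of all probe sets tested. Another 1 was higher, as were 31.2% of those tested, and 7 overlapped. Against withdrawal arrays, 2 were lower (14.9% of those tested), 2 were higher (39%) and 5 overlapped. The shares cover tested probe sets only, and 6 of these 9 were not among them. The median differences of the 9 were −0.033 and −0.028.

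Nacc2 showed the clearest disagreement. Its probe set 1380459_at read 7.09, 6.51 and 6.41 under treatment, 6.45, 6.34 and 6.44 after withdrawal and 6.72, 6.21 and 6.46 in untreated rats, a treated minus untreated difference of 0.21. Its dim probe set 1392893_a_at read 5.27, 4.44 and 4.31 under treatment, 4.07, 3.77 and 4.14 after withdrawal and 4.35, 3.69 and 4.28 in untreated rats, with differences of 0.56 and 0.68. Both of these were higher in the treated mean, opposite to 1377932_at, so the array gives no single direction for Nacc2.

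For Grm8, the dim probe set 1369391_at had the same direction as the bright one. It read 4.32, 4.48 and 4.31 under treatment, 4.93, 4.90 and 4.85 after withdrawal and 4.68, 4.98 and 4.73 in untreated rats, with no overlap between treated and other arrays. The differences, −0.43 and −0.52, were smaller, at a level near the bottom of the scale. Its remaining probe set, 1371243_at, overlapped in all comparisons, with a treated minus untreated difference of 0.056.

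Trpv1 probe set 1368313_a_at gave −0.18 for treated minus untreated and −0.26 for treated minus withdrawal, and the dim 1370685_at gave −0.088 and −0.040. For Slc24a4, the dim 1378356_at gave 0.33 and 0.14, higher on treated arrays with no overlap, and 1394272_at gave −0.069 and 0.012. The second Stk36 probe set, 1393254_at, gave −0.033 and −0.028. Apart from the first Trpv1 and the Stk36 probe set, these had been left out as dim, where a change in the RNA may not show. The mean over all probe sets of a gene was also used in place of the brightest. The treated minus untreated difference then became −0.70 for Grm8, −0.54 for Trpv1, −0.38 for Slc24a4, −0.69 for Stk36 and −0.14 for Nacc2. By this mean 7 of 8 genes remained without overlap, Nacc2 being the exception. That mean still holds the brightest probe set, and no share over all genes is given beside the count.

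**Figure D4:**
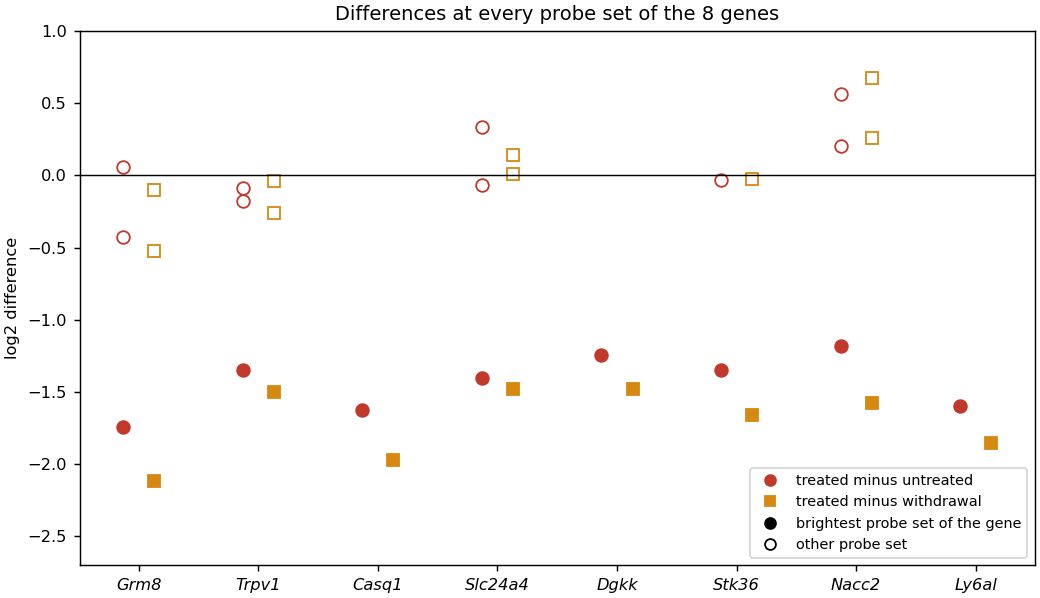
Log2 differences (y axis) at each of the 17 probe sets of the 8 genes, treated minus untreated as circles and treated minus withdrawal as squares, filled for the gene's brightest probe set. The filled symbols lie from −1.18 to −2.12 and the open ones from −0.52 to 0.68.

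The bases before the start site are shown for Grm8 and Casq1, the genes with the largest differences, and for Slc24a4, which holds an E-box. RefSeq (GRCr8) sequences were found for 6 of the 8 genes, without Dgkk and Ly6al, and the 250 bases before the start were searched on both strands. The letters were AGGTCA for the nuclear receptor half-site, a pair of half-sites in the same direction with 1 base between them for the PPAR response element (which therefore holds the half-site), CACGTG for the E-box, TGACGTCA for the cAMP response element and GGGCGG for the GC box. Capitals mark the matches, and each sequence is read 5′ to 3′ along the gene.
Grm8, chr4:57687507-57687756, minus strand: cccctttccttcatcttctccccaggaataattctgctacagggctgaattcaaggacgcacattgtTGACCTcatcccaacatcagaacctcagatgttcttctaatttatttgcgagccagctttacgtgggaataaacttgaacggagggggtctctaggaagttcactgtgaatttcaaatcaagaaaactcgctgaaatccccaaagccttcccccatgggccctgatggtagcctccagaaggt
Casq1, chr13:87212711-87212960, minus strand: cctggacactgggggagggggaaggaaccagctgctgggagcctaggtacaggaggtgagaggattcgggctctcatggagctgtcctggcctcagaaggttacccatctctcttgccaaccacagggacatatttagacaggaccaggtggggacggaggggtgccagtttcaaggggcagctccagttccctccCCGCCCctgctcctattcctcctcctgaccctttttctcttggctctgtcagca
Slc24a4, chr6:127044220-127044469, plus strand: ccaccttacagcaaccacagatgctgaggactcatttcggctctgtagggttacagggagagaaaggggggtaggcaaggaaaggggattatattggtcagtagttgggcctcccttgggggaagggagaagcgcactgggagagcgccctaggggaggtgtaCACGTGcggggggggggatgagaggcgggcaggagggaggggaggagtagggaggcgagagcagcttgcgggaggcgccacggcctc

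The capitals in Grm8 are the half-site on the opposite strand, those in Casq1 a GC box on the opposite strand and those in Slc24a4 an E-box. The whole PPAR response element was in 0 of the 6 windows and in 0.0508% of the 33469 windows of all genes. The half-site alone was in 1 of 6, against 14.1%, and the E-box in 1 of 6, against 5.59%. The cAMP response element was in 0, against 1.59%. GC boxes were in 3 of 6 (Casq1, Stk36 and Nacc2), against 30.5%, and the 2 GC boxes of Stk36 overlapped. A match is no binding site by itself, and its absence says only that these letters are not in this window.

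Relatives of the 8 genes were read from lists of their families and pathways, and no tested gene of these lists had a difference as low as those of the 8 genes. The 8 genes were picked for low treated values and the relatives were not, so the choice favoured this order. Counts leave out the 8 genes themselves. For treated minus untreated arrays limma called 28.1% of probe sets tested (20.9% rose and 7.24% fell), and for treated minus withdrawal arrays 43.8% (32.6% rose and 11.2% fell). After quantile normalization 7.75% of probe sets rose and 9.45% fell against untreated arrays (17.2% in all). Against withdrawal arrays 14.6% rose and 14.6% fell on that scale (29.1% in all). The lists count genes, by 1 probe set each. Over all genes with a tested probe set, as deposited, 24% rose and 5.74% fell against untreated arrays. Against withdrawal arrays 37.9% of genes rose and 8.46% fell. No gene of these lists was called between withdrawal and untreated arrays.

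Metabotropic glutamate receptors other than Grm8 were dim. Of the 6 measured, Grm6 alone was tested, and it read 5.01, 5.31 and 5.32 under treatment, 6.33, 5.77 and 5.51 after withdrawal and 5.36, 5.78 and 5.40 in untreated rats. It fell against withdrawal arrays by 0.66 (limma, adjusted p = 0.0205) and differed by −0.30 from untreated arrays without passing. The other group III receptors, Grm4 and Grm7, had treated means of 4.29 and 3.73, left out as dim. Of 9 ionotropic glutamate receptors tested, 2 rose against withdrawal arrays and 1 against untreated arrays, and none fell. Gria2, an AMPA receptor subunit, rose by 1.09 against untreated and by 0.89 against withdrawal arrays, on both scalings.

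Of 11 genes of glutamate transport and metabolism tested, 5 rose and 1 fell against withdrawal arrays, and 2 rose and 1 fell against untreated arrays. After quantile normalization 1 rose and 2 fell, and 0 rose and 1 fell. The enzymes Got1 (0.88), Glud1 (0.85) and Gad1 (0.81) were among those that rose against withdrawal arrays. After quantile normalization Got1 still rose, at 0.55, while Glud1 and Gad1 had 0.16 and 0.053. Slc1a1, a neuronal glutamate transporter, fell by 0.57, and by 0.54 against untreated arrays, and it also fell after quantile normalization.

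Around Casq1, 21 genes of calcium release and storage in the endoplasmic reticulum were tested. Against withdrawal arrays 9 rose and 2 fell, and against untreated arrays 4 rose and 0 fell. After quantile normalization 4 rose and 1 fell, and 1 rose and 0 fell. Atp2a3, the calcium pump SERCA3 of beta cells, read 11.70, 11.33 and 11.19 under treatment, 10.21, 10.06 and 10.38 after withdrawal and 10.64, 10.10 and 10.47 in untreated rats. It rose by 1.19 against withdrawal arrays and also rose against untreated arrays (limma, adjusted p = 0.00329), by 0.41 and 0.43 after quantile normalization. The chaperone calnexin (Canx) rose by 1.06 against withdrawal and by 0.76 against untreated arrays. After quantile normalization it had 0.26 and 0.16, and the call against untreated arrays was lost. Atp2a2 rose by 0.85 and 0.55, which became 0.034 and −0.044 after quantile normalization, both calls being lost. The direction of Casq1 was thus opposite to that of the pump genes called in its list as deposited. Casq2, the cardiac calsequestrin, did not pass, with −0.03 and −0.07 for treated minus untreated and treated minus withdrawal.

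Of the 17 other TRP channels measured, 9 were tested and the rest left out as dim. Trpv6 and Trpv5, the calcium-selective channels of the Trpv family, fell on treated arrays in both comparisons and on both scalings. Trpv6 fell by 0.74 against untreated and by 1.04 against withdrawal arrays, and Trpv5 by 0.61 and 0.67. Mcoln1, a lysosomal channel, rose by 0.41 and 0.58, and also rose after quantile normalization. Trpc1 rose by 0.47 against withdrawal arrays, a call lost after quantile normalization, at 0.13. Trpv2 and Trpv4 were among those left out as dim. Trpv4 had means of 4.06 under treatment, 4.82 after withdrawal and 4.66 in untreated rats. Trpm8, also left out, had 4.34, 5.16 and 5.08. The dim Trpc4 and Mcoln2 had their highest means under treatment.

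In the list of sodium-calcium exchangers and calcium pumps, 13 genes were tested. Against withdrawal arrays 4 rose and 2 fell, and against untreated arrays 1 rose. After quantile normalization 0 rose and 2 fell, and 0 rose and 1 fell. Slc8a1, the plasma membrane sodium-calcium exchanger, rose by 0.74 and Slc24a2 by 0.59 against withdrawal arrays, and Slc24a1 fell by 0.59. The rises of Slc8a1 and Slc24a2 did not pass after quantile normalization, at 0.20 and −0.02. Atp2b1, a plasma membrane calcium pump, was the gene that rose against untreated arrays, by 0.55, and it had 0.18 after quantile normalization. Slc24a3 did not pass, at 0.17 and 0.04.

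Among 7 further diacylglycerol kinases tested, Dgkg fell by 0.72 against untreated and by 0.70 against withdrawal arrays, and Dgki fell by 0.54 against withdrawal arrays. Dgkq rose by 0.37 against withdrawal arrays, a call lost after quantile normalization. Dgkd, of the same type as Dgkk, had −0.04 and 0.04, and Dgkh was left out as dim. Of 18 targets of diacylglycerol and phospholipases tested, 1 rose and 4 fell against withdrawal arrays and 1 rose and 1 fell against untreated arrays. After quantile normalization 1 rose and 6 fell, and 1 rose and 4 fell. Protein kinase C genes went both ways: Prkcb rose by 0.88 against untreated arrays and Prkcq fell by 0.43.

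Nacc2 acts through NuRD. Of 12 genes of that corepressor tested, 9 rose against withdrawal and 6 against untreated arrays, and none fell. Rbbp7, a histone-binding subunit, rose by 1.07 and 0.93, and the methyl-CpG-binding genes Mbd2 and Mbd3 by 0.93 and 0.79 against withdrawal arrays and by 0.74 and 0.71 against untreated arrays. After quantile normalization 2 rose in each comparison, Rbbp7 and Mbd3. Nacc1, the closest relative of Nacc2, was left out as dim.

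Of 8 tested genes of Hedgehog signalling besides Stk36, 3 fell against untreated and 2 against withdrawal arrays, and none rose. Boc and Cdon, co-receptors for Hedgehog ligands, fell by 0.97 and 0.46 against untreated arrays, and the ligand gene Dhh by 0.48. Against withdrawal arrays Cdon and Dhh fell by 0.75 and 0.54, and Boc differed by −0.45 without passing. All 3 also fell against both groups after quantile normalization. Sufu, the inhibitor of the pathway, did not pass, at 0.10 and 0.05.

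Of 9 other genes of the Ly6 family tested, Ly6g6c fell by 0.73 against untreated and by 0.87 against withdrawal arrays, on both scalings. Ly6e rose by 0.67 against withdrawal arrays, which became −0.09 after quantile normalization, where 0 rose and 2 fell in this list. Ly6c did not pass, at −0.36 and −0.28.

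**Figure D5:**
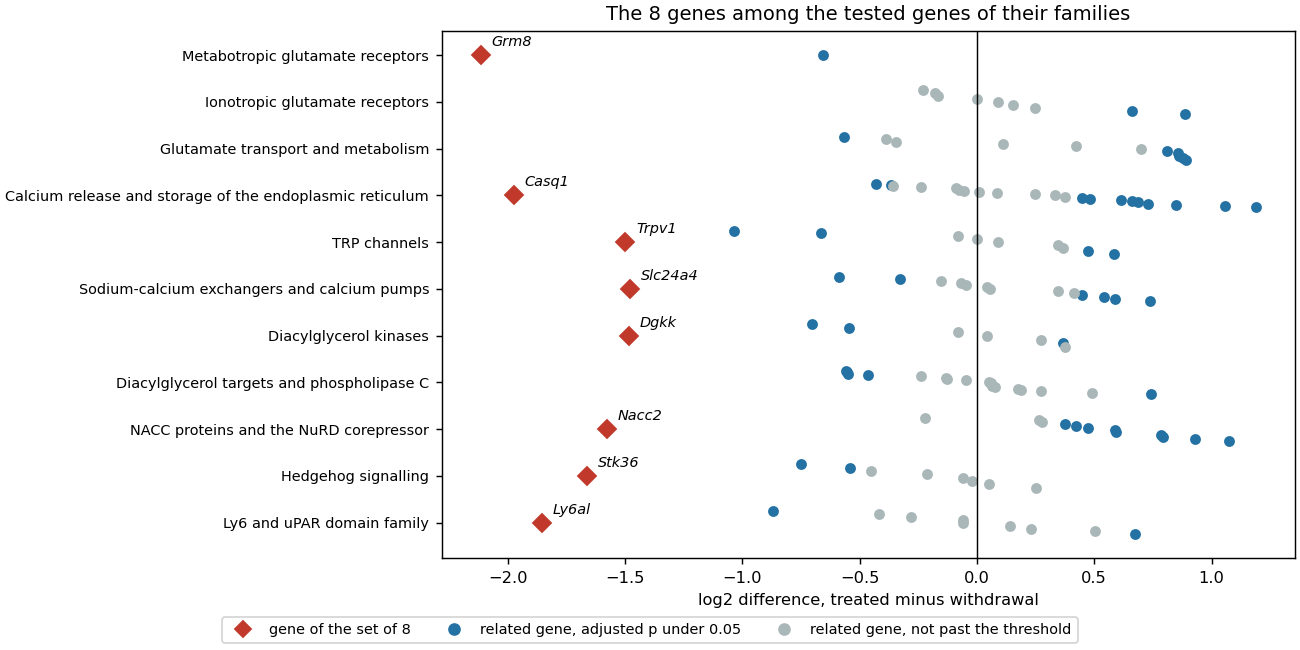
Treated minus withdrawal log2 differences (x axis) of the tested genes in each family or pathway list (y axis), with the 8 genes as red diamonds. The 8 genes, picked for low treated values, lie from −1.48 to −2.12, to the left of every other gene shown. The nearest is Trpv6, which fell by 1.04.

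Markers of islet cells and of other cell types, some known to carry these genes, were read on the same arrays. No probe set reads 0 on this scale. The mean of 7 sensory nerve markers was 6.19 to 6.22 under treatment, 6.13 to 6.27 after withdrawal and 6.13 to 6.26 in untreated rats. These ranges overlapped. Of 6 nerve markers tested, 1 rose against withdrawal arrays, and after quantile normalization 1 rose and 1 fell. The mean of 9 skeletal muscle markers was 5.58 to 5.73 under treatment, 5.51 to 5.56 after withdrawal and 5.52 to 5.57 in untreated rats. It was highest on treated arrays, and 5 of the 9 markers lay below the array median on every array. In that list Myh1 rose by 0.93 and Tnnt3 fell by 0.57 against untreated arrays. The means of 3 ciliated cell markers overlapped between the groups, and Dnai1 of that list fell by 0.58 against withdrawal arrays. T cell markers had means of 5.41 to 5.63, 6.01 to 6.28 and 5.90 to 6.13, and 3 of 5 fell against each of the other groups. Schwann cell markers had means of 5.82 to 5.94, 6.14 to 6.26 and 5.98 to 6.15, with none of the 3 measured markers called. Beta cell markers had means of 12.5 to 12.6, 12.0 to 12.1 and 12.1 to 12.3, and delta cell markers of 9.75 to 10.3, 8.80 to 9.06 and 8.99 to 9.47, both highest under treatment as deposited. Of the 5 beta cell markers 2 rose against each of the other groups, and after quantile normalization 0 rose against untreated and 1 against withdrawal arrays. Their median difference from untreated arrays was 0.24, or 0.087 after quantile normalization. Alpha cells make glucagon, and the means of 3 of their markers were 8.85 to 9.26, 8.75 to 8.76 and 8.94 to 9.00, so treated and untreated arrays overlapped. The glucagon gene Gcg was the alpha cell marker that rose against withdrawal arrays, by 0.76, or by 0.58 after quantile normalization, where Ttr of that list fell against both groups. Of 2 macrophage markers tested none was called, and 1 fell against withdrawal arrays after quantile normalization. Of 3 endothelial markers 1 rose against withdrawal arrays. After quantile normalization 2 fell against untreated and 1 against withdrawal arrays. Of 3 duct markers 1 fell against each of the other groups and 1 rose against withdrawal arrays, a rise lost after quantile normalization. The part of all these cell markers in the results for the 8 genes was not tested.

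The genes with the most similar course over the 9 arrays were found by Pearson correlation, given as a description since all points share the 3 groups. Grm8 was followed most closely by Lenep (r = 0.991) and the orexin receptor gene Hcrtr1 (0.990), and Ly6al by Lenep (0.997) and Trhr (0.995). Trhr, the receptor for thyrotropin-releasing hormone, differed by −1.45 for treated minus untreated and −1.66 for treated minus withdrawal arrays. Casq1 was followed by the luteinizing hormone receptor gene Lhcgr and the retinoic acid receptor gene Rarg, both at 0.991, and Trpv1 by Gmpr2 (0.994) and Abhd11 (0.991). For Slc24a4 they were Ncoa3 (0.983) and Slc1a1 (0.971), and for Dgkk Wnt1 (0.993) and Pak3 (0.983). Stk36 was followed by Nacc2 (0.994) and the ephrin receptor gene Epha6 (0.992), and Nacc2 by Hccs (0.996) and Kl (0.994). Similar courses did not mean similar sizes: Hcrtr1 differed by −0.25 and Lhcgr by −1.29 for treated minus untreated arrays. Over their own 28 pairs the 8 genes had correlations from 0.88 to 0.99.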

How the data were processed

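Islet RNA of 9 samples, 3 per group, was hybridised to expression arrays. The authors deposited log2 signals per probe set, a scale read from the values. RMA and MAS5 are named in the submitters' processing notes, without roles or versions, and the arrays' distributions differ. The 57 control probe sets were left out, which left 31042. Symbols came from the platform annotation, updated through the GRCr8 gene table for names. The lowest 33.3% by mean log2 were left out and 20695 tested in R 4.3.3 by limma 3.58.1 (a linear model with moderated variances, 1 term per group, 9 arrays, two-sided, Benjamini-Hochberg over all probe sets, threshold 0.05). The probe set of highest mean stands for a gene. Named genes were the 8 genes, their closest relatives, up to 4 called genes per list by the F test, and 2 most correlated genes each. The genes and lists were chosen with earlier results of these data known, and the motifs later. The number of arrays limits the precision. Alternatives (scaling, filter, weights, arrays left out, replicate block, mean over probe sets) are in the closing section. The drawing tool was matplotlib 3.10.9 under Python 3.11.15.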

Additional observations from a re-analysis of the deposited data

How the results depend on the processing

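With the brightest probe set, all 8 genes stayed below both other groups without overlap after quantile normalization and after centring each array on its median. The other alternatives with that probe set could not add an overlap, since they changed no array value or only left arrays out. With the mean over probe sets 7 of 8 stayed below, with no share over all genes given for that rule. The choice of the genes used these values, so the counts are a description. For withdrawal minus untreated, 0 of 8 were called except with array weights, where 5 were. The sizes of the differences moved. With array weights the treated minus untreated differences of all 8 genes were smaller, from −1.59 (Casq1) to −0.85 (Dgkk). Without treated replicate 1, Nacc2 had −0.87 and Stk36 −0.97. After quantile normalization the difference of Grm8 grew to −2.08. The counts over all probe sets also moved. For treated minus untreated, 5817 (4318 higher) became 3559 (1604 higher) after quantile normalization and 3209 with only the 6 arrays compared, and 2029 to 6340 with 1 array left out (lowest without the second untreated array, 3815 without the first). For treated minus withdrawal, 9057 (6745 higher) became 6032 (3020 higher) after quantile normalization and 5573 to 9545 with 1 array left out (lowest without the second withdrawal array). For withdrawal minus untreated, 33 became 87 after quantile normalization, 3275 with array weights, 494 with only the 6 arrays compared, 50 with the replicate block and 7 to 399 with 1 array left out: 399 without treated replicate 1, 54 without treated replicate 2, 21 without treated replicate 3, 11 without withdrawal replicate 3, 7 without withdrawal replicate 1 or 2 or untreated replicate 1 or 3, and 33 without untreated replicate 2. Quantile normalization without treated replicate 1, chosen after seeing the data, gave 409. Whether the replicate numbers pair the arrays was not settled. Deviations of same-numbered arrays correlated from −0.283 to 0.504, and those of differently numbered arrays from −0.485 to 0.406. The block changed no call among the 8 genes. Over all probe sets it gave 6414 calls for treated minus untreated and 9434 for treated minus withdrawal. Slc24a4 reversed for withdrawal minus untreated, to −0.045 without withdrawal replicate 2, −0.0096 without withdrawal replicate 3 and −0.20 without untreated replicate 3, with 0.27 the highest value (without withdrawal replicate 1), never past the threshold. The causes were not tested. Signal near the bottom of the array scale limits the dim probe sets.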

Other observations

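The probe set 1369370_s_at, which the annotation gives to both Trpv1 and Trpv4, read 5.46, 6.04 and 5.74 under treatment, 5.65, 5.68 and 5.74 after withdrawal and 5.48, 5.55 and 5.44 in untreated rats, with treated and other arrays overlapping. Hybridisation control probe sets added to every sample had mean log2 signals of 8.67 to 9.71 under treatment, 8.02 to 8.77 after withdrawal and 8.46 to 8.77 in untreated rats, and treated replicate 1, the array with the lowest mean of the 8 genes, had the 8.67.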
